A study of Mus musculus with 24 samples.

Results

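Skeletal muscle of *Usp15*-deficient mice was compared with that of wild-type mice on 6 Affymetrix mouse exon arrays, 3 per genotype, chosen by their tissue and genotype labels out of the 12 arrays of the series. All mice were C57BL/6 and 1 month old, and the other 6 arrays hold cerebellum of the same genotypes. The sources used here name neither the muscle that was dissected nor the way the *Usp15* allele was made. Each array carries total RNA of 1 sample, summarised by the authors into 23332 transcript clusters, each roughly a gene, and into 229581 probe sets, each within an exon. Values are log2 signals, so that a difference of 1 is a doubling of the signal. Every difference below is *Usp15*-deficient minus wild-type, and the 6 values of a gene are given in the order wild-type replicates 1, 2 and 3, then *Usp15*-deficient replicates 1, 2 and 3.

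USP15 is a ubiquitin-specific protease that removes ubiquitin from other proteins, with known partners in TGF-beta signalling, in the COP9 signalosome and in the spliceosome. Skeletal muscle is built from slow and fast fibres. Slow fibres contract on oxidative metabolism with their own myosin, troponin and calcium pump, and fast fibres carry another set of these proteins. Limb muscles differ in how much of each fibre type they hold, so the RNA of a muscle sample reflects which muscle, and which part of it, was taken as well as the state of its fibres. In bulk samples, more fibres or cells of a type and more RNA per cell cannot be told apart.

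The labelled tissue was borne out by its markers. The 8 measured skeletal muscle genes, among them *Acta1* (skeletal actin) and *Ckm* (muscle creatine kinase), averaged between 12.62 and 12.75 on each array, while 9 cerebellar markers averaged between 3.60 and 4.02. All pairs of muscle arrays correlated between 0.973 and 0.983 across clusters, and the array medians lay between 5.41 and 5.51. The Y-linked *Kdm5d* (2.71 to 2.92) and *Eif2s3y* (1.51 to 1.60) were at the same low level on every array. A pair of arrays stood apart from others of their genotype. Wild-type replicate 3 carried the slow-fibre genes at the level of the *Usp15*-deficient arrays, and *Usp15*-deficient replicate 2 had little tendon signal and more fat, lymphoid and nerve signal, with values given below. Whether each sample of a genotype was another animal is not said by the labels, and p-values therefore cover only the spread among these 6 samples, which may be technical. A single gene cannot pass an exact permutation test here, since 3 against 3 gives no two-sided p below 0.1.

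*Usp15* itself was lower in all 3 *Usp15*-deficient arrays. The *Usp15* cluster measured 8.43, 8.92, 8.65 and 6.73, 6.81, 6.86. No *Usp15*-deficient array reached any wild-type array, and the difference was -1.87 ± 0.15 (SE, n = 3 per genotype), with a limma adjusted p of 0.273 over all clusters. At the exon level all 23 *Usp15* probe sets were lower, with no overlap between genotypes at any of them. Over all probe sets, 3.62% had every *Usp15*-deficient array higher, 3.13% every one lower, and 3.18% an unadjusted p under 0.05. Of all 229581 probe sets, 2 passed the adjusted threshold of 0.05 (0.000871%), and both lie in *Usp15*. They differed by -7.42 and -7.30 (adjusted p = 0.00178 and 0.00199). The other 21 had a median difference of -1.76, between -2.87 and -1.29, which leaves a median signal of 29.5% of wild-type. The difference was thus far larger at 2 probe sets than along the rest of the transcript. With the replicate number as a block only the first of them passed, and under the methods' t-test, taken probe set by probe set, neither did.

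**Figure D1:**
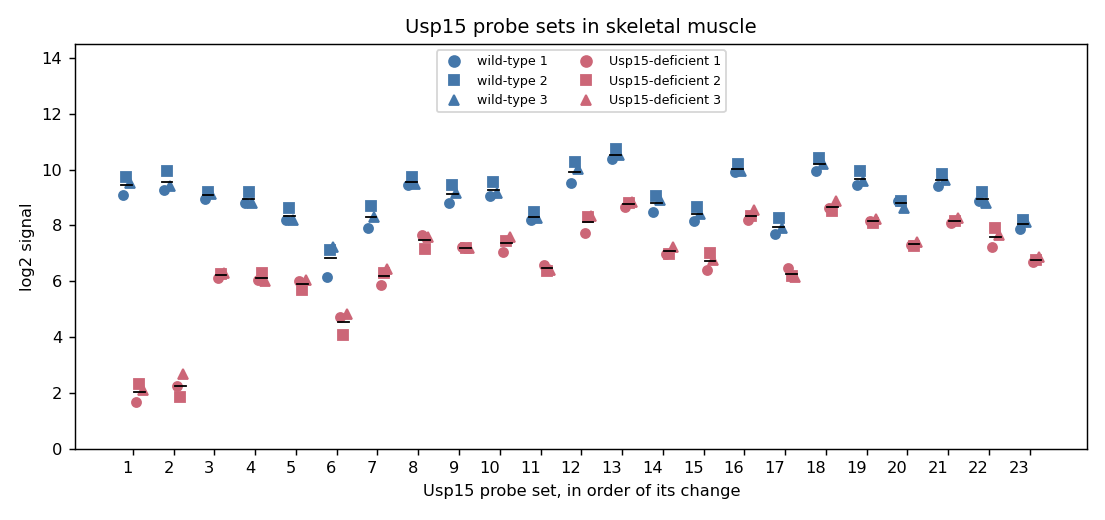
Log2 signal of the 23 *Usp15* probe sets on the 6 muscle arrays, ordered by their difference, with a black bar at each genotype mean. Every *Usp15*-deficient point lies below the wild-type points of its probe set, and the first 2 probe sets lie between 1.68 and 2.66 in *Usp15*-deficient muscle, where the others lie between 4.08 and 8.87.

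No transcript cluster passed the test in muscle. Of the 23332 clusters, 0 had a limma adjusted p under 0.05 (0%), and the smallest adjusted p of a cluster other than *Usp15* was 1.0. At an unadjusted p under 0.05, 720 clusters differed (3.09%), 379 higher (1.62%) and 341 lower (1.46%). Among clusters with a single symbol, from which the gene lists were drawn, 1.02% were higher and 0.694% lower at that threshold. The 3 arrays of one genotype all lay above the 3 of the other in 789 clusters with *Usp15*-deficient higher (3.38%) and in 694 with wild-type higher (2.97%). With a single symbol these shares were 3.4% and 2.41%. A mean difference of at least 1 was seen in 81 clusters upward (0.347%) and 67 downward (0.287%). These shares are the background against which the genes and families below are read. A family is described by its counts and its median, and the median over all clusters was 0.01, with 54.1% of all clusters and 56.4% of those with a single symbol higher.

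The slow-fibre genes were the family with the largest median, and several of them followed a split of the arrays that was not that of genotype. All 11 measured members were higher on average in *Usp15*-deficient muscle, with a median difference of 0.90, but none passed the test and none separated the genotypes. *Myl2*, the slow regulatory myosin light chain, measured 5.39, 5.09, 10.09 and 9.71, 9.33, 9.95. *Tnnc1*, slow troponin C, measured 4.10, 3.92, 8.99 and 7.80, 8.52, 8.25. *Tnni1*, slow troponin I, measured 5.29, 5.60, 9.80 and 8.89, 9.17, 9.08. In each, wild-type replicates 1 and 2 were low, and wild-type replicate 3 lay above all 3 *Usp15*-deficient arrays. The differences were 2.81 ± 1.29, 2.52 ± 1.32 and 2.15 ± 1.15 (SE).

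*Tpm3*, slow tropomyosin, and *Atp2a2*, the slow-fibre calcium pump of the sarcoplasmic reticulum, had the same shape with smaller steps. *Atp2a2* measured 7.65, 7.81, 9.14 and 9.04, 8.88, 9.24. *Myoz2*, a slow-fibre calcineurin-binding Z-disc protein, measured 9.05, 9.03, 10.04 and 10.76, 9.87, 10.17, a difference of 0.90 ± 0.35, and was the only member with an unadjusted p under 0.05. Not every member had this shape. On wild-type replicate 2 the median over the probe sets of *Ankrd2*, *Casq2* and *Csrp3* was 10.14, 8.05 and 7.80. On *Usp15*-deficient replicate 2 it was 10.09, 8.25 and 8.20. The slow myosin heavy chain *Myh7* was not measured as a cluster of a single symbol, like *Tnnt1* and *Myl3*, and was read from its probe sets, which share sequence with *Myh6*. All 27 were higher, with a median difference of 2.53, and the median over them was 5.32, 5.63, 9.82 on the wild-type arrays and 8.57, 9.20, 9.06 on the *Usp15*-deficient arrays. Without wild-type replicate 3, 3 clusters passed the test, *Tnni1* (3.60, adjusted p = 0.0312), *Tnnc1* (4.18, 0.0375) and *Myl2* (4.42, 0.0312), and 28 probe sets passed, 13 of them in *Myh7*. Over all clusters, 10 had wild-type replicates 1 and 2 at least 1 below each of the other 4 arrays, 7 of them with a single symbol. Beside *Myl2*, *Tnnc1*, *Tnni1*, *Tpm3* and *Atp2a2* these were *Lgi1* and *Tecrl*, found after their values were seen. *Lgi1*, a secreted protein known from synapses, measured 3.74, 3.45, 5.20 and 5.19, 5.33, 5.24.

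The fast-fibre genes gave no such split, on signals near the upper end of the scale. The 12 measured members, which include *Tnni2*, *Tnnt3* and *Actn3* of the fast sarcomere and the calcium buffer *Pvalb*, differed by between -0.05 and 0.06, and their mean lay between 12.69 and 12.75 on all 6 arrays. The highest signal of any cluster was between 13.54 and 13.70 on each array, so a difference in these genes may be compressed and their flat values do not show that fast-fibre content was the same. The mean of the slow-fibre list was 6.71, 6.90, 9.06 on the wild-type arrays and 8.71, 8.52, 8.78 on the *Usp15*-deficient arrays. *Myh4*, the fastest myosin, was lower at 7 of 7 probe sets by a median of 0.12 (difference -0.12), and *Myh2*, the myosin of fast oxidative fibres, was higher at 34 of 41 with a median difference of 0.20. None of these probe sets passed the test.

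**Figure D2:**
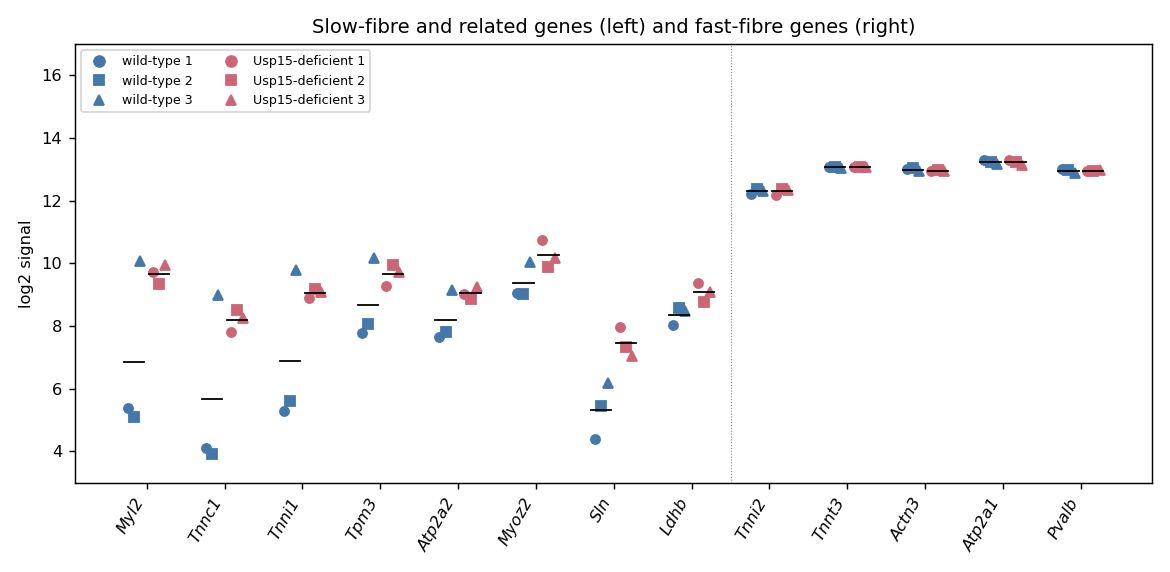
Log2 signal of slow-fibre and related genes (left of the dotted line) and of fast-fibre genes (right) on the 6 muscle arrays, with a black bar at each genotype mean. In *Myl2*, *Tnnc1* and *Tnni1* the wild-type triangle (replicate 3) sits with the *Usp15*-deficient points while wild-type replicates 1 and 2 lie far below, and the fast-fibre genes of all arrays sit between 12.19 and 13.30.

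Regulators of fibre type differed little. Of 20 measured, 9 were higher and 11 lower, with a median of -0.05. *Sox6*, a repressor of slow-fibre genes, measured 9.30, 9.55, 9.24 and 8.90, 9.15, 9.09, a difference of -0.32 ± 0.14 with all *Usp15*-deficient arrays below all wild-type arrays, and 29 of its 29 probe sets were lower. *Esrrg*, an oxidative nuclear receptor, differed by 0.46 ± 0.19 with overlap. *Ppargc1a*, the coactivator of mitochondrial genes, differed by 0.11 ± 0.16. *Nfatc1*, which carries the calcineurin signal of slow fibres, differed by -0.09 ± 0.11.

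*Sln* had the largest difference among the genes named for their rank. Sarcolipin, its product, is a small membrane protein that inhibits the calcium pump of the sarcoplasmic reticulum. *Sln* measured 4.38, 5.44, 6.18 and 7.98, 7.33, 7.03, a difference of 2.11 ± 0.48 (95% interval 0.96 to 3.26), or 4.32 times the wild-type signal. The genotypes did not overlap, and wild-type replicate 3 was again the highest wild-type array. All 4 *Sln* probe sets were higher. With the slow-fibre mean of each array as a covariate the difference was 1.46. That mean was itself lower on wild-type replicates 1 and 2 than on every *Usp15*-deficient array. With 6 arrays, fits with this covariate therefore separate it poorly from genotype, here and below. The rest of the excitation-contraction list did not go with *Sln*. Of 20 members 16 were lower, with a median of -0.08, and *Ryr1*, the calcium release channel, differed by -0.04 ± 0.13. *Hrc*, a luminal calcium-binding protein, was lower without overlap by 0.17 (difference -0.17 ± 0.11). *Ldhb*, the lactate dehydrogenase subunit of oxidative tissue, has 2 clusters, and the brighter one measured 8.02, 8.57, 8.47 and 9.39, 8.76, 9.10, a difference of 0.73 ± 0.22 without overlap, and 14 of 15 probe sets were higher. The dimmer cluster differed by 0.13 ± 0.46.

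The lists of energy metabolism had small medians. Of 50 oxidative phosphorylation genes 24 were higher and 26 lower, with a median of 0.00, and of 21 glycolysis and glycogen genes 8 were higher, with a median of -0.01. Tricarboxylic acid cycle genes were higher in 9 of 12, with a median of 0.05. They were higher in 12 of 12 without wild-type replicate 3 and in 4 of 12 without wild-type replicate 1. Fatty acid genes were higher in 18 of 21, with a median of 0.15, and none had an unadjusted p under 0.05. Without wild-type replicate 1, 12 of 21 were higher with a median of 0.01. That array was the lowest in *Hadha*, a subunit of the mitochondrial trifunctional protein (9.15, 9.66, 9.76 and 9.90, 9.75, 9.63).

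Genes of the neuromuscular junction were higher as a group by a small amount. The junction is where the motor nerve meets the fibre, with acetylcholine receptors clustered in the fibre membrane through the kinase MuSK. Of 15 measured members 14 were higher, with a median of 0.23. An unadjusted p under 0.05 was reached by 2 of them and 2 separated the genotypes, both upward. Among clusters with a single symbol these upward shares were 1.02% and 3.4%. *Musk* measured 7.26, 7.31, 8.07 and 8.32, 8.51, 8.73. All *Usp15*-deficient arrays lay above all wild-type arrays, by 0.97 ± 0.25 (95% interval 0.37 to 1.57), a ratio of 1.96. At the exon level 19 of 19 *Musk* probe sets were higher and 14 did not overlap, so that the difference runs along the whole transcript.

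The receptor subunits had smaller differences. *Chrna1*, the alpha subunit, measured 8.16, 8.21, 8.73 and 8.72, 8.74, 9.16, a difference of 0.51 ± 0.21, and wild-type replicate 3 overlapped the *Usp15*-deficient arrays. *Chrne*, the epsilon subunit of the adult receptor, measured 6.65, 6.90, 7.0 and 7.17, 7.32, 7.09, a difference of 0.34 ± 0.14 without overlap. *Chrnb1* and *Chrnd* differed by 0.31 and 0.23. *Chrng*, the subunit of the embryonic receptor, which stands in the developmental list, measured 5.31, 5.16, 5.70 and 5.65, 5.26, 5.76, with overlap. The anchoring protein *Rapsn* differed by -0.03 and *Agrn*, which encodes agrin, the nerve signal to MuSK, by 0.01. In *Musk*, *Chrna1* and *Chrnb1* wild-type replicate 3 was the highest wild-type array, as it was for the slow-fibre genes. With the slow-fibre mean as a covariate the difference of *Musk* was 0.58, that of *Chrna1* 0.22 and the median of the list 0.08. Without wild-type replicate 1 the median was 0.09, and without *Usp15*-deficient replicate 3 it was 0.12.

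The promoters of the 3 junction genes described first hold the E-box CAGCTG, a motif bound by the MyoD family of muscle regulators, and these sequences are shown because all 3 genes had higher means. The window searched was 250 bases before to 50 after the start site in the RefSeq annotation of GRCm38.p6. Capitals mark the motif, which reads the same on both strands, in 30 bases of the gene's own strand, and the number is the position of its first base from the start site. Of the 15 junction genes 10 have a promoter in the table and 5 of these hold the motif, which 16.3% of all 32851 promoters hold. Some genes have several promoters in the table, so the count per gene and the share per promoter are not on the same footing. *Chrnb1* and *Agrn*, which also had higher means, have promoters without the motif. In the slow-fibre list 10 genes have a promoter and 5 of these hold the motif as well. Such a match is a description of the letters and not a binding site.
Musk, -68, chr4:58285882-58285911, plus strand: gtgagttctcccCAGCTGgccacgtccatc
Chrna1, -92, chr2:73580413-73580442, minus strand: ctgtgggcagctCAGCTGtcatgcgggcac
Chrna1, -44, chr2:73580365-73580394, minus strand: tagctgtggagtCAGCTGgcttccaaggcc
Chrne, -138, chr11:70619315-70619344, minus strand: cacaggatggggCAGCTGcctcccccaccc

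Myogenic factors, some of which bind such motifs, did not differ in one direction. *Myod1* measured 7.46, 7.33, 6.99 and 7.06, 6.79, 7.10, a difference of -0.27 ± 0.17. *Myog*, myogenin, measured 6.28, 6.10, 7.25 and 6.63, 6.46, 7.65, where both replicates 3 were the highest of their genotype. *Pax7*, the satellite cell factor, was between 6.39 and 6.55 on all arrays. *Pax3* was lower without overlap by 0.32 (difference -0.32 ± 0.14), and 12 of its 14 probe sets were lower.

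*Mt2* led the stress and atrophy genes. Metallothioneins are small proteins that bind zinc and copper and respond to metals, glucocorticoids and oxidative stress. *Mt2* measured 8.08, 9.02, 8.28 and 10.55, 10.26, 9.39, a difference of 1.61 ± 0.37 (95% interval 0.71 to 2.50), or 3.04 times the wild-type signal. The genotypes did not overlap, and all 4 probe sets were higher without overlap. *Mt1*, its neighbour, measured 7.14, 7.60, 7.19 and 8.47, 8.13, 7.03. Here *Usp15*-deficient replicate 3 was the lowest of all 6 arrays, so the genotypes overlapped (0.57 ± 0.38). The covariate for slow fibres left *Mt2* at 1.74.

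Both promoters hold the core of the metal response element, TGCACNC or TGCGCNC on either strand. The core was found at 4 places for *Mt2* and 3 for *Mt1*, with 1 promoter each, and at least once in 25.7% of all promoters. Among the junction and slow-fibre genes it was found at 4 places for *Etv5* and at 3 each for *Dok7*, *Tnni1* and *Prkar1a*, which have 2 to 6 promoters. The places before the start site of *Mt2* and *Mt1* are shown in the same form as above, with the core in capitals. The core does not overlap the E-box, which neither metallothionein promoter holds.
Mt2, -223, chr8:94172384-94172413, plus strand: agcatcgcctcTGCACCCggcccctcgggc
Mt2, -128, chr8:94172479-94172508, plus strand: cgcagacccttTGCGCTCagctcctttgct
Mt2, -50, chr8:94172557-94172586, plus strand: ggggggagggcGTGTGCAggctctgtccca
Mt1, -23, chr8:94179055-94179084, plus strand: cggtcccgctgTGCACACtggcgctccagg

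The other atrophy and autophagy genes were mostly higher by little. Of 21 measured 19 were higher, with a median of 0.13, and *Mt2* was the only one with an unadjusted p under 0.05. *Cdkn1a*, the cell cycle inhibitor p21, measured 7.53, 6.82, 7.02 and 8.67, 8.01, 7.28, a difference of 0.86 ± 0.37 with overlap, since *Usp15*-deficient replicate 3 was below wild-type replicate 1. *Gadd45a* differed by 0.40 ± 0.26. The ubiquitin ligase *Fbxo32* (atrogin-1) measured 8.86, 9.12, 8.61 and 9.55, 9.81, 8.11, so that *Usp15*-deficient arrays were both the highest and the lowest. Without *Usp15*-deficient replicate 2, 10 of the 21 were higher and the median was -0.02.

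*Eda2r* and *Krt18* were higher without overlap. *Eda2r*, the receptor of ectodysplasin A2, measured 5.95, 6.50, 6.57 and 7.30, 7.11, 7.19, a difference of 0.87 ± 0.19, and all 7 probe sets were higher. *Krt18*, a keratin of simple epithelia, measured 4.74, 4.64, 4.62 and 5.94, 5.45, 5.52, a difference of 0.97 ± 0.16. It had the smallest unadjusted p among higher clusters, and all 7 probe sets were higher, 4 without overlap. Of the 5 measured skin and hair markers 4 were higher and 1 lower, with a median of 0.09. An unadjusted p under 0.05 was reached by 1 and 1 did not overlap, both upward. Among clusters with a single symbol these upward shares were 1.02% and 3.4%. *Krt14*, which marks the skin epithelium, differed by 0.22, *Trp63* by 0.49 and the lowest member by -0.11. The list averaged between 5.05 and 5.34 on each array.

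Immediate early genes, which are induced within minutes of a stimulus, were higher in 11 of 14, with a median of 0.21. *Egr3* measured 4.64, 4.63, 4.60 and 5.42, 5.12, 5.69, a difference of 0.79 ± 0.17 without overlap. *Egr2* measured 5.21, 5.19, 5.30 and 5.71, 6.44, 5.68, a difference of 0.71 ± 0.22 without overlap. In both, the wild-type arrays lay close together and the spread was in the *Usp15*-deficient arrays. *Egr2* is also a Schwann cell factor and *Egr3* is known from muscle spindles, the stretch receptors of muscle. *Atf3* measured 6.10, 6.02, 6.78 and 7.88, 6.22, 7.53 and overlapped. *Fos*, *Junb* and *Nr4a1* differed by 0.19, -0.03 and 0.00. Without *Usp15*-deficient replicate 1 the median of the list was 0.08.

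**Figure D3:**
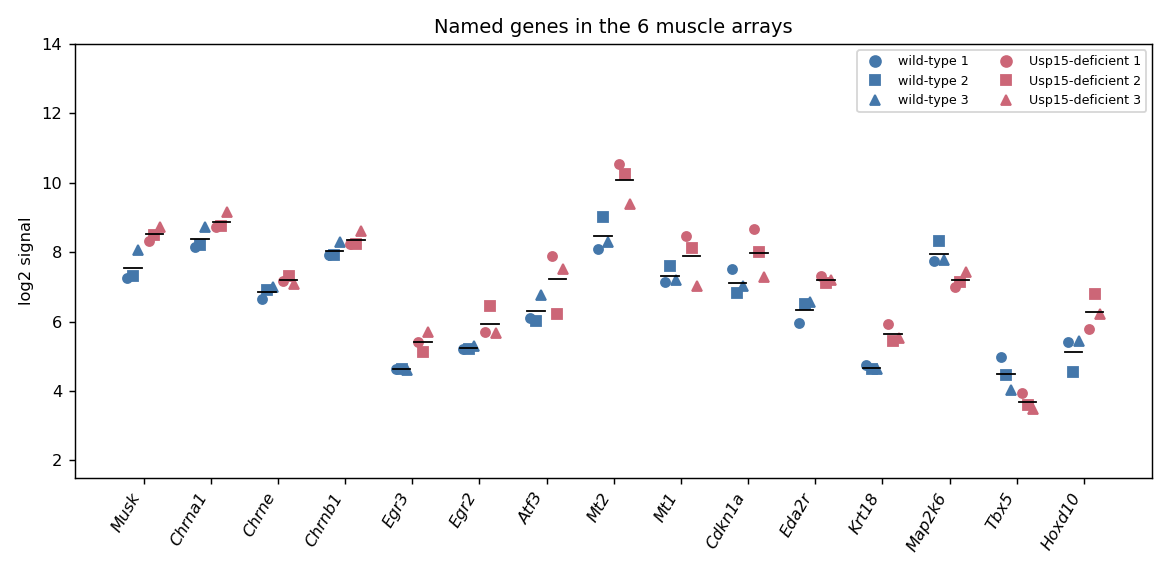
Log2 signal of genes of the junction, immediate early and stress groups, *Map2k6* and limb position genes on the 6 muscle arrays, with a black bar at each genotype mean. *Musk*, *Chrne*, *Egr3*, *Egr2*, *Mt2*, *Eda2r*, *Krt18* and *Hoxd10* are higher and *Map2k6* and *Tbx5* lower in all 3 *Usp15*-deficient arrays, while *Chrna1*, *Chrnb1*, *Atf3*, *Mt1* and *Cdkn1a* overlap.

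Among lower genes, *Map2k6* was lower along its whole transcript. It encodes MKK6, a kinase that activates p38. *Map2k6* measured 7.74, 8.31, 7.78 and 6.98, 7.15, 7.42, a difference of -0.76 ± 0.20 without overlap. All 17 probe sets were lower and 12 did not overlap. *Zbtb12*, a zinc finger gene, measured 6.03, 6.32, 6.22 and 5.45, 5.31, 5.68, a difference of -0.71 ± 0.15, and *Tceal1* differed by -0.52 ± 0.12, both without overlap. For *Ttc5* the measures disagreed, since 1 of its 2 clusters differed by -1.31 ± 0.35 while the other differed by 0.08 ± 0.26 and 4 of its 6 probe sets were higher.

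Of the other genes named for their rank, *Tmem100*, a membrane protein of endothelium, differed by 0.78 ± 0.19, *Npr3*, the clearance receptor of natriuretic peptides, by 0.58 ± 0.15, and *Rasl11b*, a small GTPase, by 0.52 ± 0.13. Their probe sets were higher in 9 of 9, 10 of 10 and 6 of 6. *Ostn*, which encodes the muscle hormone osteocrin, a ligand of that receptor, measured 4.39, 4.48, 4.38 and 5.02, 6.14, 4.88. The difference was 0.93 ± 0.33 without overlap, and 0.53 without *Usp15*-deficient replicate 2.

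A share of the genes named for their rank lay at the low end of the signal range. Of the 30, 10 were olfactory or vomeronasal receptor genes, 4 higher and 6 lower, and 9 of them had a mean below the 25th percentile of all clusters (3.95). Such receptors make up 5.34% of clusters with a single symbol, and 7.37% of the 801 receptor clusters had an unadjusted p under 0.05. *Olfr1018*, for example, measured 2.05, 2.03, 2.02 and 2.65, 2.77, 2.50.

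Paralogs, partners and pathways of USP15 differed little. Of 16 measured paralogs and partners 11 were higher, with a median of 0.02, and none separated the genotypes. The closest paralogs, *Usp4* and *Usp11*, differed by -0.05 ± 0.13 and 0.15 ± 0.14. The spliceosome partners *Sart3* and *Prpf31* differed by -0.02 and 0.08. Of 19 spliceosome genes 13 were higher, with a median of 0.07, and of 25 proteasome genes 19 were higher, with a median of 0.04. The unfolded protein response genes were higher in 21 of 23 with a median of 0.07, and in 11 of 23 without *Usp15*-deficient replicate 3. Target genes and components of TGF-beta and BMP signalling were higher in 18 of 24, with a median of 0.08. Among them *Id2*, an inhibitor of helix-loop-helix factors, measured 5.46, 5.28, 5.87 and 5.79, 6.10, 6.73 (0.67 ± 0.28), and *Smad7*, the inhibitory Smad, was higher without overlap by 0.15 ± 0.10.

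Genes that mark position along the limb and body axis gave one of the larger shares of small p-values. These homeobox and T-box genes keep the expression of the embryonic place in adult tissue. Of 19 measured, 1 was higher and 4 lower at an unadjusted p under 0.05, and 2 and 4 did not overlap, beside 1.02% and 0.694%, and 3.4% and 2.41%, of clusters with a single symbol. *Hoxd10* measured 5.41, 4.55, 5.45 and 5.79, 6.78, 6.22, a difference of 1.13 ± 0.34. *Tbx5*, a forelimb gene, measured 4.98, 4.46, 4.02 and 3.95, 3.58, 3.47, a difference of -0.82 ± 0.27. In both, the genotypes did not overlap. For *Tbx5* the gap was only between 4.02 and 3.95, and its *Usp15*-deficient values lay near or below the 25th percentile of all clusters (3.95).

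*Tbx1* measured 7.76, 7.54, 7.01 and 6.96, 6.82, 6.73, a difference of -0.60 ± 0.21. *Hoxc6* and *Hoxc8* were lower by 0.44 and 0.34 (differences -0.44 ± 0.15 and -0.34 ± 0.12), with wild-type arrays within 7.14 to 7.19 for *Hoxc6* against 6.46 to 6.96. The posterior limb genes did not differ in one direction. *Hoxd9*, beside *Hoxd10*, measured 5.41, 5.54, 6.54 and 6.30, 6.95, 6.29, with 11 of its 12 probe sets higher, and *Hoxa11* measured 4.59, 4.57, 4.70 and 5.31, 4.52, 5.24, with 7 of 7 higher. Both overlapped between genotypes. *Hoxc10* measured 8.26, 8.53, 8.11 and 8.07, 8.22, 8.02, *Pitx1* 5.93, 5.41, 5.38 and 5.66, 5.31, 5.67, and *Tbx4* between 5.88 and 6.29. In these 3 the genotypes overlapped as well. Whether the same muscle, at the same place, was taken from each animal is not stated, and its part in the fibre, junction and position genes was not tested.

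Markers of other cell types varied between arrays, most of all in *Usp15*-deficient replicate 2. Of 13 Schwann cell and myelin genes 13 were higher, with a median of 0.41. An unadjusted p under 0.05 was reached by 3, and 5 did not overlap. Among clusters with a single symbol these upward shares were 1.02% and 3.4%. The mean of the list was 6.03, 5.98, 6.05 and 6.16, 7.13, 6.41, highest in *Usp15*-deficient replicate 2, and without that array the median was 0.20, still with 13 of 13 higher. *Mal*, a membrane protein of myelin, measured 5.02, 5.64, 5.84 and 5.87, 8.08, 6.37. *Sox10*, the Schwann cell lineage factor, measured 5.91, 6.00, 5.68 and 6.05, 6.46, 6.02. *Mag*, a myelin adhesion protein, differed by 0.41 ± 0.16 without overlap.

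The tendon and cartilage list averaged 8.02, 7.98, 6.88 on the wild-type and 8.07, 6.01, 8.56 on the *Usp15*-deficient arrays. Wild-type replicate 3 and *Usp15*-deficient replicate 2 were the low arrays. *Chad*, a cartilage and tendon matrix protein, measured 10.05, 9.78, 7.56 and 10.45, 5.52, 10.24. The adipocyte list averaged 7.30, 7.64, 7.96 and 6.80, 8.82, 7.30, and *Adipoq*, the fat hormone adiponectin, spanned 5.64 to 10.22 within the *Usp15*-deficient arrays alone. The lymphocyte and mast cell list averaged 4.63, 4.28, 4.83 and 4.20, 5.79, 4.83, and the macrophage list 6.67, 6.49, 7.36 and 6.23, 7.64, 7.26. Without *Usp15*-deficient replicate 2 the medians of the adipocyte, lymphocyte and macrophage lists were -0.49, -0.10 and -0.17 in place of 0.14, 0.32 and 0.20. In the tendon, adipocyte, lymphocyte and macrophage lists the genotypes overlapped, and no member of them was without overlap.

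**Figure D4:**
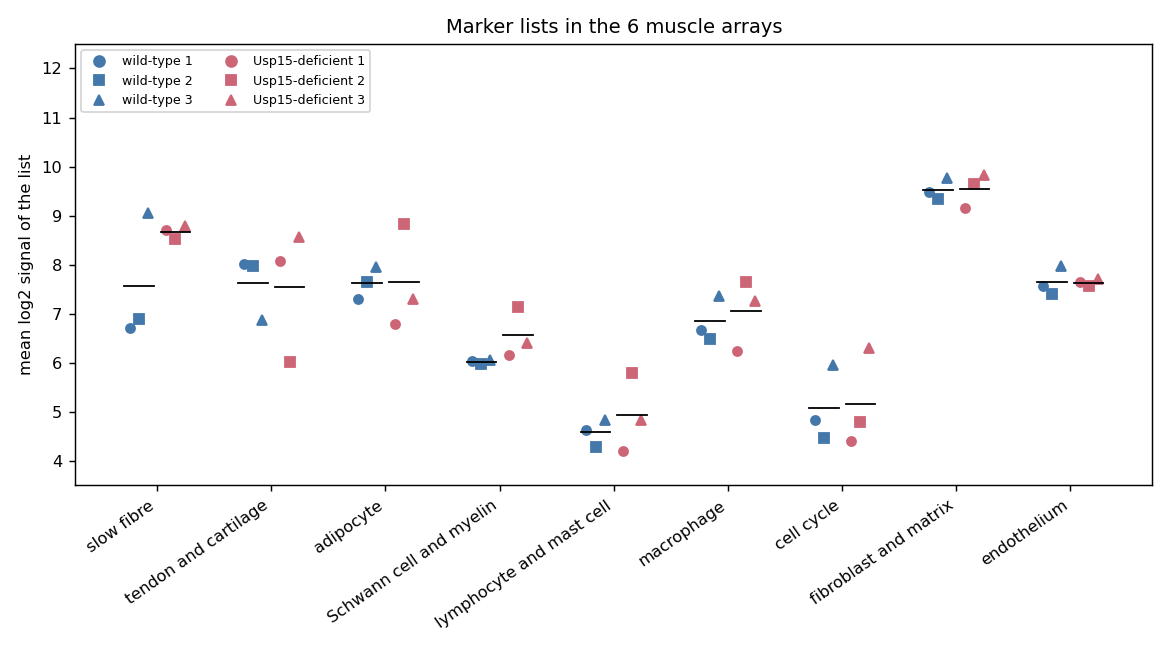
Mean log2 signal of 9 marker lists on each of the 6 muscle arrays, with a black bar at each genotype mean. *Usp15*-deficient replicate 2 (square) is the highest array for the adipocyte, Schwann cell, lymphocyte and macrophage lists and the lowest for tendon, and the cell cycle list is highest on both replicates 3.

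The remaining muscle lists were close to balance or rested on single arrays. Of 14 sarcomere scaffold genes 13 were higher, with a median of 0.05, and of 10 genes of the dystrophin complex 5 were higher, with a median of 0.00. The 11 heat shock genes had a median of -0.05 and the 13 circadian clock genes -0.08. Of 15 interferon response genes 12 were higher, with a median of 0.12, and without *Usp15*-deficient replicate 2 the count was 5 and the median -0.07. Of 20 myokines and growth factors 9 were higher, and *Nr3c1*, the glucocorticoid receptor, was lower without overlap by 0.27 (difference -0.27).

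Across the 41 lists with at least 5 measured members, the largest medians belonged to the slow-fibre, Schwann cell and lymphocyte lists, and most medians lay close to that of all clusters. The ranges obtained by leaving out 1 array at a time show which of them rest on single arrays. The slow-fibre median ran from 0.54 to 1.32 and the junction median from 0.09 to 0.31. The adipocyte median ran from -0.49 to 0.49. The fast-fibre list, the skeletal muscle list and the 50 oxidative phosphorylation genes stayed within narrow ranges near 0.

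**Figure D5:**
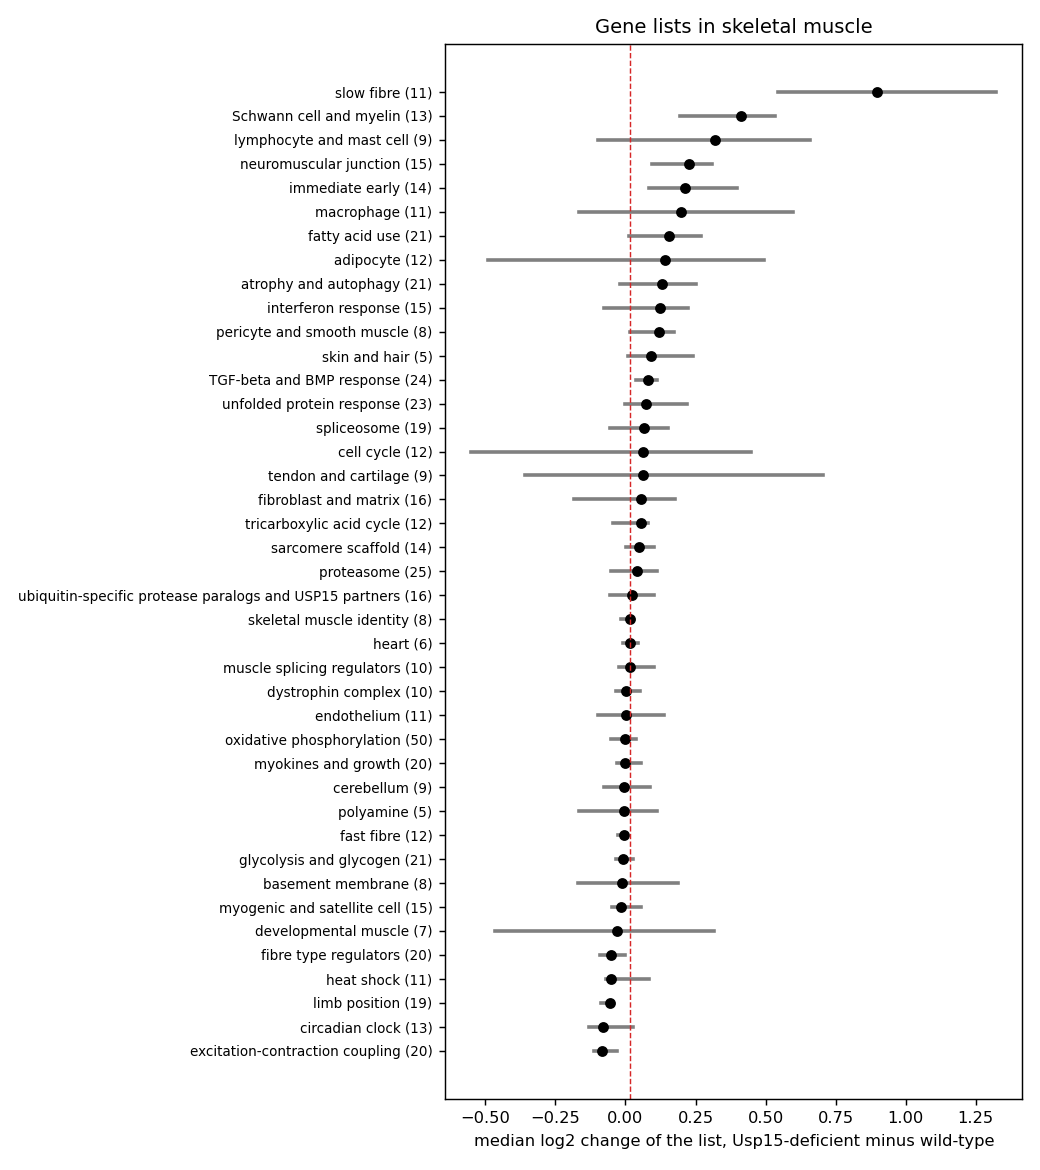
Median log2 difference (*Usp15*-deficient minus wild-type) of each gene list with at least 5 measured members, whose number is in parentheses. Points are medians over all 6 arrays, grey lines run from the lowest to the highest median when 1 array is left out, and the dashed line is the median of all clusters (0.01).

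At the exon level, 2 of the 171647 probe sets that could be set against the gene-level value of their own gene passed the test (0.00117%), beside 3.77% at an unadjusted p under 0.05. Both were the *Usp15* probe sets with the largest loss, at -5.55 ± 0.18 and -5.43 ± 0.22 relative to *Usp15* (adjusted p = 0.0105 and 0.0218). With any 1 array left out, 0 passed. The next was a probe set of *Col9a1*, a collagen gene, at -1.89 ± 0.13 (adjusted p = 0.355), with signals of 3.94, 3.91, 3.97 and 2.26, 2.05, 2.08. Probe sets of *Lama1*, a laminin chain (5.36, 5.26, 5.27 and 4.13, 4.07, 4.17), and of *Usp38*, another ubiquitin-specific protease (3.74, 3.15, 3.99 and 0.95, 0.64, 0.71), also lay lower without overlap and did not pass. The probe set next in rank for the difference itself after those of *Usp15* is unnamed here. It measured 2.63, 2.01, 2.42 and 6.07, 5.55, 5.38, a difference of 3.31 ± 0.27 (adjusted p = 0.147), with no overlap between genotypes.

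The difference in muscle was set against that in cerebellum in a fit of all 12 arrays with 4 group means. The interaction of genotype and tissue passed the threshold in 0 of 23332 clusters (0%), with 2.91% of clusters at an unadjusted p under 0.05. The *Usp15* cluster differed by -0.52 ± 0.09 in cerebellum, and the muscle difference was larger by 1.35 (interaction -1.35 ± 0.18, adjusted p = 0.249). In cerebellum *Krt18* differed by 0.00 ± 0.15, *Mt2* by 0.09 ± 0.12, *Sln* by -0.01 ± 0.17, *Musk* by -0.03 ± 0.10 and *Map2k6* by 0.04 ± 0.10. None of these genes passed the test of the difference between tissues, so no difference was shown to be particular to muscle. Without wild-type replicate 3, 6 clusters passed it, among them *Tnni1*, *Tnnc1*, *Myl2*, *Atp2a2* and *Lgi1*.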

How the data were processed

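Total RNA of skeletal muscle was hybridised to Affymetrix mouse exon arrays, 3 per genotype. The deposited tables hold log2 signals, per the values, which the authors made for transcript clusters (the gene level) and for probe sets (the exon level). Their normalization and the genome build of the array are not given in the sources at hand, and the signals were used as deposited. Clusters were named through the platform annotation, updated by gene number: 14996 had 1 symbol, 1019 several and 7317 none, and only those with 1 symbol were named. Where a symbol had several clusters, the cluster of highest mean stood for it in the lists. 0 columns of the tables were left without a sample.

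Genotypes were compared with limma 3.58.1 (lmFit and eBayes, R 4.3.3) over all clusters or all probe sets of the 6 arrays, with Benjamini-Hochberg adjustment and a threshold of 0.05, two-sided. Errors are the standard errors of that fit and intervals cover 95%. Probe sets were also tested after subtraction of the gene-level value of their gene on the same array, and the interaction with tissue over all 12 arrays. Exon-level counts per gene are counts of probe sets, which share their arrays. Named are *Usp15*, the 15 higher and 15 lower clusters of smallest p, and up to 4 members of each list by p with the members that define a fibre or cell type. Further list members were named for their role after their values were seen. The members, the lists and the promoter motifs were chosen with earlier results of these data known. Alternatives were all 12 arrays in the fit, a replicate block, each array left out, quantile normalization, another prior and array weights. Further alternatives were a filter on dim features, Student's t-test and other references for probe sets. The mean of the slow-fibre or fast-fibre list also served as a covariate. In data simulated at the gene level, 36 of 100 clusters changed by 1 and 80 of 100 changed by 2 were called, with 8 unchanged clusters. Both sizes were put into the same fit, with independent noise for each cluster. The shares depend on how many clusters change and need not hold for the muscle arrays. At the exon level 0 of 100 were called at either size. The number of arrays limits the precision.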

Additional observations from a re-analysis of the deposited data

How the results depend on the processing

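With all 12 arrays sharing 1 estimate of spread, 2 clusters passed in muscle in place of 0, *Usp15* (difference -1.87, adjusted p = 0.000568) and an unnamed cluster, and 21 probe sets passed in place of 2. Most of these probe sets lie in *Usp15*, and the others in *Usp38*, *Lgi1* and *Col9a1* (limma adjusted p = 0.00946, 0.0287 and 0.0312). Probe sets that passed numbered 11 with a trended and robust prior, 4 without the dimmest 25% and 0 with Student's t-test. With 1 array left out, 0 to 3 clusters, 2 to 28 probe sets, 0 probe sets relative to their gene and 0 to 6 clusters for the interaction passed. The highest counts came without wild-type replicate 3. With quantile normalization 1 cluster, *Usp15*, passed for the interaction. The difference of *Mki67*, a proliferation marker, was -0.86 with the slow-fibre mean as a covariate in place of 0.24. At an unadjusted p under 0.05, where 379 clusters were higher and 341 lower, 235 and 172 were without the dimmest 25% of clusters, a filter that leaves fewer to test, and 620 and 570 with the replicate block. For the other differences of single genes, list medians and counts, 3462 values under the alternatives were classed as unchanged. For a gene this meant the same side of the threshold, with the same direction or a difference within its standard error of 0. For a list median it meant a shift within the replicate spread, and for a count a similar size. As 0 clusters passed in the main fit, an unchanged side of the threshold shows little. *Tnni1*, *Tnnc1* and *Myl2* passed without wild-type replicate 3. The medians of 31 of the 43 lists, most of them near 0, had the other sign under at least 1 alternative, among them the adipocyte, macrophage, lymphocyte, tendon, cell cycle and interferon lists. The causes were not tested.

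The labels do not say that a replicate number marks a shared animal, litter or day. Deviations from the group means of arrays with the same number correlated at 0.305, 0.0641 and 0.16 for replicates 1, 2 and 3 at the gene level. Arrays of unlike number were not compared in this way, so these values have no reference and do not show pairing. The numbers were not treated as pairs. With the replicate number as a block, 0 clusters passed, 1 probe set, 0 probe sets relative to their gene and 0 clusters for the interaction, and the *Usp15* cluster had an adjusted p of 0.979.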

Other observations

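The patterns in these paragraphs were looked for after the values were seen. *Usp15*-deficient replicate 2 lay at least 1 above each of the other 5 arrays in 124 clusters, 75 of them with a single symbol, and at least 1 below in 38, 15 with a single symbol. Among the former were genes of B lymphocytes, such as *Cd79a* (4.70, 3.0, 4.39 and 3.42, 6.82, 4.92), of fat, such as *Adipoq* (7.49, 8.16, 8.75 and 5.64, 10.22, 7.18), and of myelin lipid synthesis, such as *Ugt8a* (4.57, 4.22, 4.67 and 4.68, 7.35, 5.65). Among the latter was *Kera*, the proteoglycan keratocan (10.08, 9.85, 7.76 and 9.38, 5.25, 9.99).

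Arrays of the same replicate number shared other genes across genotypes. Both replicates 3 lay at least 1 above the other 4 arrays in 31 clusters, 23 with a single symbol, among them the cell cycle gene *Top2a* (4.34, 3.95, 6.19 and 3.29, 4.17, 6.62) and *Mymk*, the myoblast fusion protein myomaker (7.67, 6.68, 8.87 and 7.01, 6.72, 9.40). *Ddit4*, a stress-induced inhibitor of mTOR signalling, was lower on both (7.77, 7.14, 5.89 and 8.24, 7.37, 5.71). Both replicates 1 lay at least 1 above the other 4 arrays in 4 clusters and at least 1 below in 16. Circadian clock genes stood on both sides. *Arntl*, which encodes the clock activator BMAL1, measured 6.92, 5.58, 5.63 and 6.80, 5.48, 5.42, and *Dbp*, one of its output genes, measured 7.38, 9.51, 9.30 and 7.77, 9.39, 9.24. No source used here gives the time of day of dissection, and its part in these values was not tested.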
